A study of Drosophila melanogaster with 21 samples.

Results

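Cytochrome P450 genes were followed in the lower reproductive tract of mated and unmated Drosophila melanogaster females through the first day after mating. Members were the probe sets that the platform annotation pairs with 1 gene and whose current symbol has the P450 form of Cyp, a family number, a subfamily letter and a gene number. The rule found 85 probe sets for 81 genes, of 10844 named genes on the array. Of the 85 probe sets, 47 had a mean log2 signal at or above that of the median probe set and are called bright below. Cyp9b2, Cyp9f2, Cyp49a1 and Cyp318a1 had 2 probe sets each. A further probe set was annotated to Cyp12d1-d and Cyp12d1-p together and was left out. Those genes are near-identical copies, so the probe set annotated to Cyp12d1-d may also detect its copy.

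P450 enzymes are haem proteins that insert an oxygen atom into small molecules, with electrons passed to them by a reductase, or by a ferredoxin in mitochondria. In insects they fall into the CYP2, CYP3, CYP4 and mitochondrial clans. Some make or break down ecdysteroid and juvenile hormones, Cyp4g enzymes make cuticular hydrocarbons, and many of the CYP3 clan, with part of the mitochondrial Cyp12 family, are induced by plant toxins, drugs and insecticides. The 85 probe sets comprised 22 of the Cyp4 family, 23 of the Cyp6 family, 9 of the mitochondrial clan for 8 genes and 4 of the CYP2 clan. The rest belonged to smaller families of the CYP3 and CYP4 clans.

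The tissue was the upper uterus with the sperm-storage organs and accessory glands, pooled from 12 to 40 females of 3 days of age per array. The 21 single-colour arrays comprised 5 of unmated females, 6 of females taken as mating ended (0 h), 4 from 3 h, 3 from 6 h and 3 from 24 h later. The labels give no strain, genotype or other treatment, and unmated females were dissected at times interspersed among the mated ones. The pools are the replicates, so the p-values measure the spread between pools, and the number of arrays limits their precision. In a pool of whole tissue, fewer cells of a type and less RNA per cell cannot be told apart.

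The deposited values were linear signal intensities, and differences are given as differences of mean log2 signal. Array medians lay between 35.6 and 57.7, and no pair of arrays of a group shared more than 0.508% of its values. The array numbers in the labels form 6 blocks of neighbouring numbers, and block accounted for 94.5% of the main axis of variation over bright probe sets, against 23.5% for the 5 groups. Unmated arrays shared no block with arrays from 0 h or 6 h, so those comparisons have no value within a block. Arrays from 3 h and 24 h link the blocks, so that a fit with block as a fixed term still gives an estimate for them. Blocks 4 and 5 each held 1 array at 6 h beside arrays at 0 h, blocks 4 and 6 each held 1 at 24 h beside 1 at 6 h, and block 3 held 1 at 3 h and 1 at 24 h beside 2 unmated arrays.

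On the deposited scale the family had its lowest median signal at 6 h, whereas relative to the median of each array the 6 h arrays overlapped the other groups. The median log2 signal of the 85 probe sets was 6.02, 6.13, 6.27, 6.28 and 6.46 on the unmated arrays. At 0 h it ranged between 5.92 and 6.51, at 3 h between 5.95 and 6.15, and at 24 h it was 5.92, 5.94 and 6.26. The 3 arrays at 6 h had 5.72, 5.77 and 5.83. All 3, each from another number block, lay below each of the other 18 arrays. Relative to the median of all probe sets on the same array, the P450 median was 0.30, 0.056 and 0.62 at 6 h, against 0.81, 0.17, 0.47, 0.50 and 0.53 in unmated females. There, 6 h replicate 3 stood above 15 of the other 20 arrays and above all but 1 unmated array. The summed signal of the 85 probe sets lay between 21075 and 24084 at 6 h, against 23595 to 36644 in unmated females, and there the ranges overlapped.

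**Figure D1:**
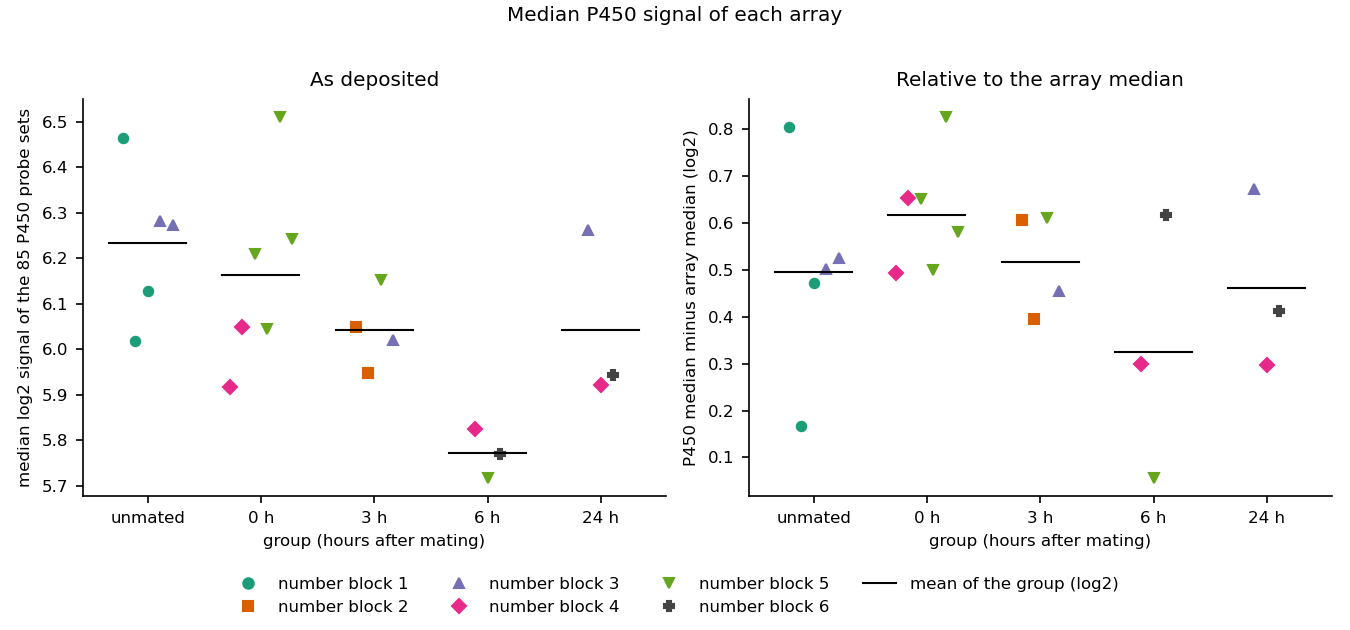
Median log2 signal of the 85 P450 probe sets on each array (left, vertical axis) and the same minus the log2 median of all probe sets on that array (right), by group along the time after mating. Marker shape and colour give the number block and black bars the mean of each group; the 3 arrays at 6 h lie below all 18 others on the left (5.72 to 5.83), whereas on the right they lie between 0.056 and 0.62 and overlap every other group.

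Few single members passed the test, which was limma's moderated test with Benjamini-Hochberg adjustment over 13966 probe sets at a threshold of 0.05. At 0 h against unmated no member passed, where 0% of all probe sets did. At an unadjusted p under 0.05 there were 5 members, or 5.88%, against 7.43% of all probe sets, and the smallest adjusted p of a member was 0.586. At 3 h against unmated 1 member passed, and 0.115% of all probe sets. The 7 members at an unadjusted p under 0.05 were all lower at 3 h, and that count of 8.24% was near the 7.64% of all probe sets.

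In the comparison of 6 h with unmated, 2 members passed, where 1.84% of all probe sets did. At an unadjusted p under 0.05 there were 19 members lower at 6 h and 1 higher, which made 23.5% of the members against 17.7% of all probe sets. By 24 h no member differed from unmated past the threshold, and 0% of all probe sets did. Here 7 members had an unadjusted p under 0.05, or 8.24%, beside 7.85% of all probe sets.

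The arrays at 6 h were also set against both neighbouring times. Between 6 h and 0 h no member passed, beside 0.179% of all probe sets, and at an unadjusted p under 0.05 there were 10 members lower and 2 higher, or 14.1% against 10.6%. Between 24 h and 6 h no member passed, beside 0.0358% of all probe sets. There 13 members were higher at 24 h and 1 lower at an unadjusted p under 0.05, or 16.5% against 6.75% of all probe sets. These comparisons share the 6 h arrays with those against unmated and are no independent evidence of the level at 6 h. In the F test over all 5 groups 1 member passed, beside 0.344% of all probe sets, and 11 members had an unadjusted p under 0.05, or 12.9% against 11.8%.

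The shift at 6 h was small for most members. From 0 h through 3 h and 6 h to 24 h, the median difference of the 85 probe sets from unmated was -0.11, -0.21, -0.44 and -0.06. The medians of all 13966 probe sets were -0.10, -0.14, -0.21 and -0.10 at the same times. At 6 h, 64 members lay below 0, or 75.3% against 60.4% of all probe sets. Among bright probe sets the median at 6 h was -0.49 for 47 members and -0.05 for all, and 39 members lay below 0, or 83.0% against 52.6%.

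Centring each array on its median moved the median of all probe sets at 6 h to 0.09 and that of the P450 probe sets to -0.15. It left 50 of 85 members below 0 at 6 h, or 58.8% against 45.2% of all probe sets. At an unadjusted p under 0.05, 7 members were lower and 4 higher, which is 12.9% of the members against 18.4% of all probe sets. With quantile normalization 59 of 85 lay below 0, or 69.4% against 48.4% of all probe sets. The medians were then -0.22 for the members and 0.02 for all probe sets. Without 6 h replicate 3, which had the lowest array median, 10 members were lower at 6 h and 1 higher at an unadjusted p under 0.05, or 12.9% against 12.8% of all probe sets, and the P450 median was -0.49. The share at an unadjusted p under 0.05 in either direction was thus above that of all probe sets on the deposited scale. It was also above it with quantile normalization (22.4% against 16.5%), below it with median centring and near it without that array. The share lower at 6 h at such a p was above that of all probe sets in each of these settings. It was 22.4% against 11.4% on the deposited scale, 17.6% against 7.84% with quantile normalization and 8.24% against 6.49% with median centring. Without 6 h replicate 3 it was 11.8% against 7.497%, and 80% of the members lay below 0 against 57.5% of all probe sets.

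Within number blocks, where 6 h and 0 h arrays stood together, the P450 median was -0.34 in block 4 and -0.39 in block 5, beside 0.00 and -0.01 for all probe sets. For 24 h against 6 h it was 0.31 in block 4 and 0.13 in block 6, beside 0.05 and 0.17 for all probe sets. The value for 24 h against 6 h was above that of all probe sets in block 4 and below it in block 6. Each of these values rests on 1 array at 6 h.

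**Figure D2:**
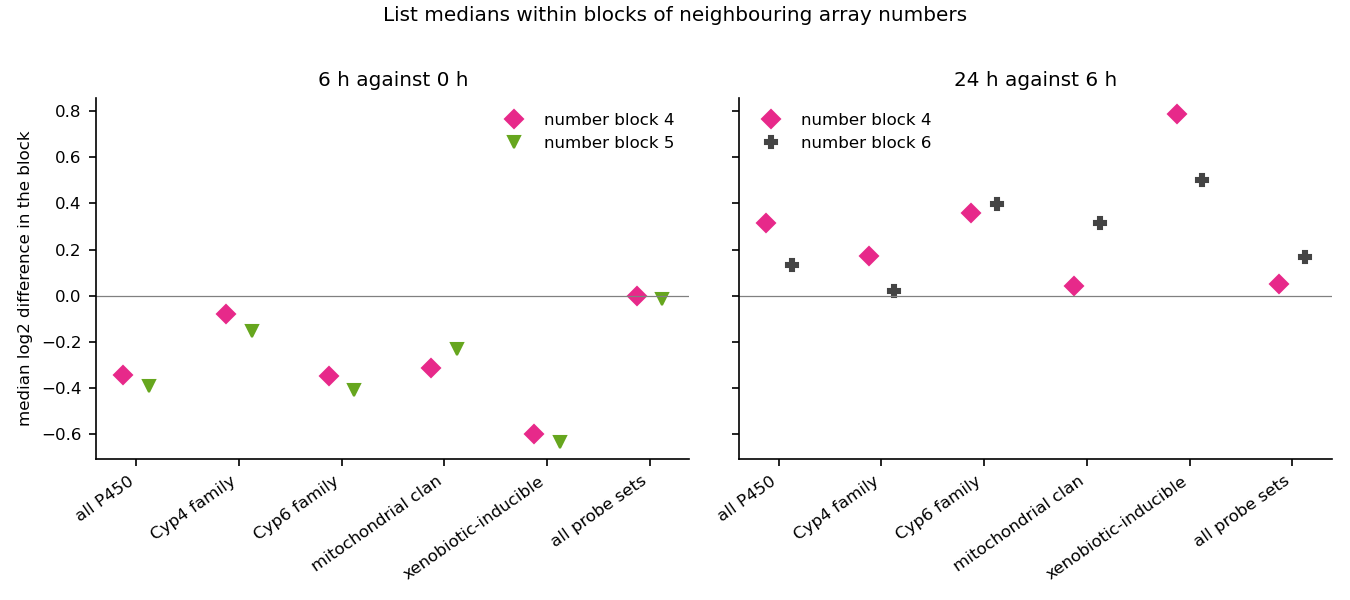
Median log2 difference of lists of P450 probe sets and of all probe sets (vertical axis), computed within single number blocks for 6 h against 0 h (left) and 24 h against 6 h (right). For 6 h against 0 h the P450 medians are -0.34 and -0.39, and those of all probe sets are 0.00 and -0.01.

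Hormone metabolism was represented by Cyp18a1, which inactivates ecdysteroids by oxidation, Cyp6t3, which takes part in ecdysteroid synthesis in the larval prothoracic gland, and Cyp6g2, known from the corpora allata, the gland that makes juvenile hormone. Of the 3 genes, Cyp18a1 passed at 6 h, where it was lower, and neither of the others passed in any comparison.

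Cyp18a1 had signals of 359.0, 174.0, 314.2, 454.0 and 406.4 in unmated females. At 0 h its lowest, median and highest signals were 164.5, 316.5 and 376.6, and at 3 h it had 241.1, 203.4, 204.3 and 427.8. At 6 h it had 96.5, 84.4 and 71.9, and at 24 h 199.5, 166.3 and 76.7. All 3 arrays at 6 h lay below every unmated, 0 h and 3 h array. At 24 h, 1 array was as low as those at 6 h and the others lay near the low end of the earlier groups.

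Against unmated females Cyp18a1 fell by 1.96 on the log2 scale at 6 h (SE 0.40, 3.88-fold lower, adjusted p = 0.0174). The call was lost with number block as a fixed term (-1.45, adjusted p = 0.369) or as a random term (adjusted p = 0.05004), with only the 6 h and unmated arrays in the fit (adjusted p = 0.0890), and without 6 h replicate 3 (-1.85, adjusted p = 0.0752). Its difference of 6 h from 0 h was -1.74 (SE 0.39, adjusted p = 0.0738), and it was -1.91 within block 4 and -1.54 within block 5. That comparison passed with number block as a fixed or a random term, without the dimmer probe sets, with log2 of signal plus 16, and with a variance trend and robust moderation. By 24 h the difference from unmated was -1.25 (SE 0.40, adjusted p = 0.455).

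Cyp6t3 had signals of 52.6, 41.2 and 53.4 at 6 h, against 90.3, 20.1, 70.7, 126.0 and 77.3 in unmated females. Cyp6g2, a dim probe set, had 10.1, 20.1 and 62.4 at 6 h, against 101.7, 20.7, 62.0, 23.3 and 13.2 in unmated females. The groups overlapped for both genes, and the differences were -0.44 (SE 0.45) for Cyp6t3 and -0.51 (SE 0.72) for Cyp6g2. That of Cyp6g2 turned to 0.095 without 6 h replicate 1.

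The Halloween genes, which make ecdysone and its active form, encode P450 enzymes too but carry names outside the symbol rule. Of 6 genes listed, spo, phtm, dib, sad and shd were measured, and none of the 5 passed in any comparison. Their differences of 6 h from unmated were -0.67 for spo, -0.25 for phtm, -1.45 for dib, -1.12 for sad and -0.01 for shd. All 5 lay below 0, where 60.4% of all probe sets did, with a median of -0.67 beside -0.21 for all probe sets. The smallest adjusted p of the 5 was 0.301, for sad. With median centring phtm and shd lay above 0, and without unmated replicate 2 shd did (0.31).

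Among mitochondrial P450 enzymes, Cyp49a1 fell at 3 h and 6 h in 1 of its 2 probe sets. This gene belongs to the mitochondrial clan, and its substrate is not stated here. Its probe set 146949_at had signals of 46.1, 117.3, 36.8, 47.7 and 89.7 in unmated females. At 0 h the lowest, median and highest were 33.5, 51.8 and 70.2. At 3 h it had 6.3, 2.3, 2.8 and 6.0, at 6 h 20.2, 3.3 and 23.5, and at 24 h 76.8, 56.9 and 38.9. All 4 arrays at 3 h and all 3 at 6 h lay below every array of the other groups, and the 24 h arrays lay within the unmated range.

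Against unmated females this probe set fell by 3.95 on the log2 scale at 3 h (SE 0.52, 15.5-fold lower, adjusted p = 0.000467) and by 2.40 at 6 h (SE 0.56, 5.26-fold lower, adjusted p = 0.0326). It passed the F test over the 5 groups (adjusted p = 0.00123). With log2 of signal plus 16, both calls held and the differences were -1.95 at 3 h and -1.37 at 6 h. Both probe sets of the gene are dimmer than the median probe set, whose signal was 41.9, and the lowest signals of 146949_at were far below that. No detection calls were used, so a signal of 2.3 cannot be told from background here.

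Its other probe set, 146950_at, did not share the difference at 3 h. It had 20.9, 16.7, 49.5 and 28.4 at 3 h, against 49, 47.8, 44.9, 33.6 and 30.5 in unmated females, and these overlapped. Its difference was -0.61 at 3 h (SE 0.59, adjusted p = 0.876) and -1.27 at 6 h (SE 0.64, adjusted p = 0.311). Which transcripts of Cyp49a1 each probe set detects was not analysed here.

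Number blocks gave mixed values for 146949_at. Within block 3 the 3 h array was lower by 3.45 than its 2 unmated arrays, whereas 6 h against 0 h was -0.79 in block 4 and -4.18 in block 5. In block 5 the single 3 h array had 2.8 and the single 6 h array 3.3, against 47.0, 56.5, 69.3 and 70.2 on the 4 arrays at 0 h. The call at 3 h was lost with number block as a fixed term (-3.40, adjusted p = 0.231). That at 6 h was lost with quantile normalization, median centring, number block as a fixed or random term, and only the groups compared (adjusted p up to 0.639). It was also lost on leaving out 6 h replicate 2 or unmated replicate 2, 4 or 5 (adjusted p up to 0.121).

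**Figure D3:**
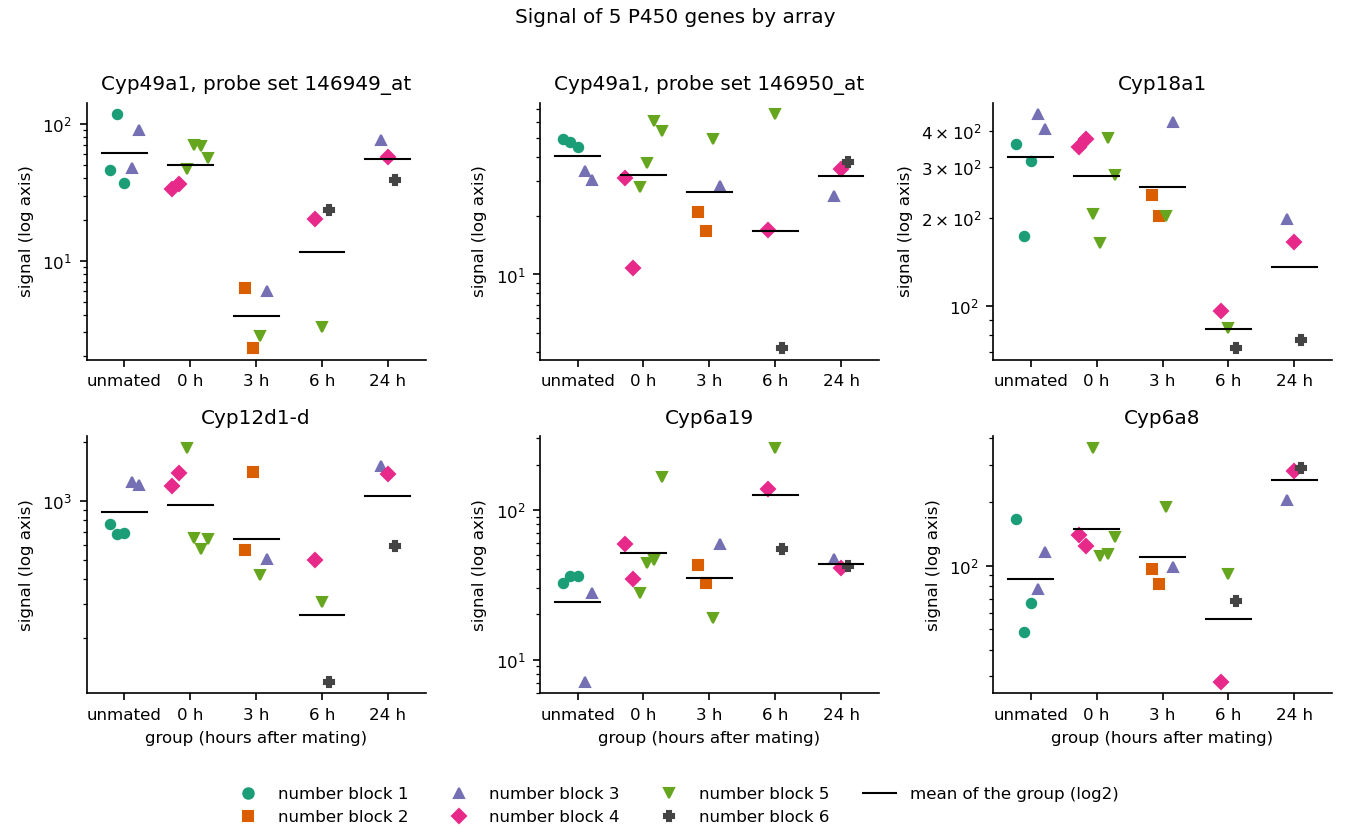
Signal of 5 P450 genes on each array (vertical log axes) by group along the time after mating; Cyp49a1 is shown with both of its probe sets. Marker shape and colour give the number block and black bars the mean of log2 values; Cyp49a1 probe set 146949_at has 2.3 to 6.3 at 3 h, and Cyp18a1 has 71.9 to 96.5 at 6 h.

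The Cyp12 genes form the rest of the mitochondrial clan with Cyp301a1, which acts in adult cuticle formation. Cyp12d1-d, inducible by drugs and linked to insecticide resistance, had signals of 500.0, 307.1 and 119.5 at 6 h, against 766.2, 681.6, 689.9, 1250.7 and 1214.6 in unmated females. The groups did not overlap, and the difference of -1.75 (SE 0.52, adjusted p = 0.0833) missed the threshold. Without 6 h replicate 3 it was -1.18, and it passed without the dimmer probe sets or with a variance trend and robust moderation (adjusted p = 0.0438 and 0.0481).

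At 24 h Cyp12d1-d had 1511.3, 1375.3 and 588.4, all above the 3 arrays at 6 h. The difference of 24 h from 6 h was 2.02 (SE 0.58, adjusted p = 0.439), and it was 1.46 in block 4 and 2.30 in block 6. Against 0 h the 6 h arrays differed by -1.85 (SE 0.50, adjusted p = 0.126), with -1.36 in block 4 and -1.42 in block 5.

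Cyp12a4, whose overexpression gives lufenuron resistance, had 1671.2, 1643.4 and 1345.0 at 6 h, against 1646.4, 711.9, 1713.5, 1756.0 and 2142.7 in unmated females, and the groups overlapped. Its difference of 0.04 (SE 0.35) changed sign with array weights, with quantile normalization and with number block in the fit. Cyp12b2 had a difference of 0.32 (SE 0.25, adjusted p = 0.540) at 6 h and of 0.52 (SE 0.25, adjusted p = 0.643) at 24 h. Of the 9 mitochondrial probe sets 7 lay below 0 at 6 h, or 77.8% against 60.4% of all probe sets, and 6 did with median centring. Their median at 6 h was -0.72, and -0.43 with median centring. It was -0.30 without 6 h replicate 3 and -1.001 without unmated replicate 5.

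Redox partners pass electrons to P450 enzymes. Of 6 listed genes, the ferredoxins Fdx1 and Fdx2, cytochrome b5 (Cyt-b5) and the reductase of cytochrome b5 (Cyt-b5-r) were measured. The reductases Cpr and dare were listed too but not measured. None of the 4 measured genes passed in any comparison. Their differences of 6 h from unmated lay between 0.36 and 0.42, all above 0, and those of 24 h from 6 h between -0.50 and -0.06, all below 0, also with median centring. For Cyt-b5-r the value at 6 h rested on unmated replicate 2, which had 1559.4 against 5881.6 to 8086.7 on the other unmated arrays, and without that array its difference was -0.044.

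The Cyp6 family had 19 of 23 probe sets below 0 at 6 h against unmated, or 82.6% against 60.4% of all probe sets, with a median of -0.44. Leaving out 1 array moved this median to between -0.65 (without unmated replicate 2) and -0.22 (without 6 h replicate 1). At an unadjusted p under 0.05 it had 7 members lower at 6 h and 1 higher, or 34.8% against 17.7% of all probe sets, and none passed after adjustment. With median centring 13 of 23 lay below 0 and the median was -0.15, and with quantile normalization these were 19 of 23 and -0.33. Of the 23, 19 were bright, and their median on the deposited scale was -0.44 with 17 below 0. That made 89.5% against 52.6% of all bright probe sets. For 24 h against 6 h, 20 of 23 lay above 0 with a median of 0.45. That left 13.0% below 0, against 46.5% of all probe sets. The median was 0.36 in block 4 and 0.40 in block 6, beside 0.05 and 0.17 for all probe sets.

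Many Cyp6 genes stand side by side in the genome. By gene order in the RefSeq annotation, 42 of the 81 genes have another P450 gene as a direct neighbour, in 15 runs. The longest run is on chromosome arm 2R and holds 9 genes, in the order Cyp6a22, Cyp6a17, Cyp6a23, Cyp6a19, Cyp6a9, Cyp6a20, Cyp6a21, Cyp6a8 and Cyp317a1. For 6 h against unmated 8 of the 9 lay below 0, where 60.4% of all probe sets did. The median of the 9 was -0.83 and the lowest value -1.25, and Cyp6a19 in their midst stood at 2.37. For 24 h against 6 h the other 8 lay above 0, with a median of 0.87 over the 9, and Cyp6a19 was at -1.52. Of all probe sets, 46.5% lay below 0 in that comparison. With median centring Cyp317a1 changed sign in both comparisons, and the medians of the 9 were -0.54 and 0.74. The genes of such a run are related in sequence, and whether their probe sets detect each other's transcripts was not tested.

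**Figure D4:**
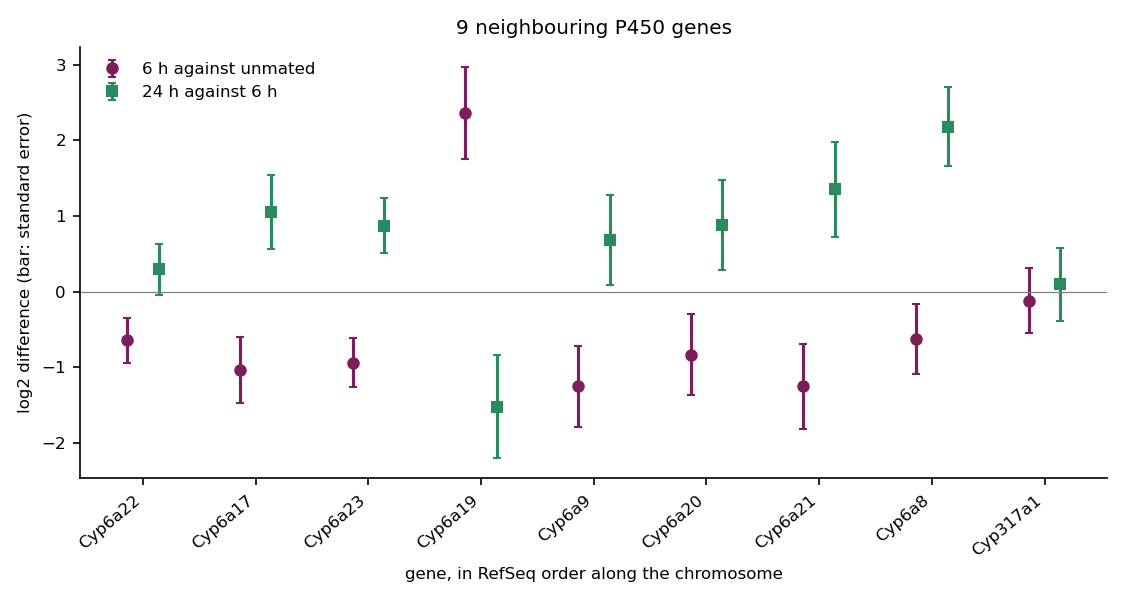
Log2 differences (vertical axis, bars give the standard error) of 9 neighbouring P450 genes in chromosomal order (horizontal axis), for 6 h against unmated and 24 h against 6 h. Cyp6a19 lies at 2.37 for 6 h against unmated and the other 8 genes lie below 0.

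Cyp6a19 had signals of 138.0, 258.0 and 54.6 at 6 h, against 32.2, 36.1, 36.2, 7.1 and 27.8 in unmated females. All 3 arrays at 6 h were above all 5 unmated arrays, and 1 unmated array stood far below the rest. At 24 h the signals were 47.2, 41.0 and 42.2, all below those at 6 h. At 0 h the lowest, median and highest were 27.6, 45.1 and 165.8, and at 3 h the gene had 42.8, 32.3, 18.8 and 59.2.

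The difference of Cyp6a19 at 6 h from unmated was 2.37 (SE 0.61, 5.16-fold higher, adjusted p = 0.0504), just outside the threshold. It passed in 8 of 12 alternatives other than leaving out an array, with adjusted p between 0.0218 and 0.216, and in 1 of 8 fits without an array. It did not pass with number block as a fixed or random term, with only the groups compared, or with the 3' to 5' ratio of control transcripts in the fit. Against 0 h it was 1.27 (SE 0.59, adjusted p = 0.455), with 1.61 in block 4 and 2.22 in block 5.

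Cyp6a8, a gene induced by barbiturates, had 203.7, 280.3 and 290.5 at 24 h, against 28.3, 91.9 and 68.2 at 6 h. In unmated females it had 165.4, 48.7, 66.7, 77.8 and 116.7. The 24 h arrays lay above every array at 6 h and every unmated array. The difference of 24 h from 6 h was 2.18 (SE 0.52, 4.54-fold higher, adjusted p = 0.231), and it was 3.31 in block 4 and 2.09 in block 6. Against unmated, the 24 h difference was 1.56 (SE 0.47, adjusted p = 0.424), and 1.10 within block 3.

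Cyp6a8 is a member of a list of xenobiotic-inducible genes, with Cyp6g1 and Cyp6a2, known for insecticide resistance, Cyp6a21, Cyp6d5, Cyp6w1, Cyp12d1-d and Cyp4e2. Of 9 listed genes 8 were measured, and all 8 lay below 0 at 6 h against unmated, with a median of -0.64, where 60.4% of all probe sets lay below 0. At an unadjusted p under 0.05 there were 4, beside 17.7% of all probe sets. With median centring 5 of 8 lay below 0 and the median was -0.35. For 24 h against 6 h all 8 lay above 0, with a median of 0.63, and all 8 did so with median centring and with quantile normalization. Of all probe sets, 46.5% lay below 0 in that comparison on the deposited scale. Within blocks the median of the 8 was -0.60 and -0.63 for 6 h against 0 h, and 0.79 and 0.50 for 24 h against 6 h. None of the 8 passed in any comparison. Cyp28d1, described below as induced by plant alkaloids, was not on the list. It lay at 0.05 for 6 h against unmated and at -0.73 for 24 h against 6 h.

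Cyp6g1 had 6244.2, 5238.2 and 4959.2 at 6 h, against 7019.6, 2808.9, 4970.7, 7723.7 and 8723.6 in unmated females. These overlapped, and the difference was -0.09 (SE 0.33), which became 0.20 with median centring. Cyp6d5 had 1487.2, 2303.2 and 1951.4 at 6 h, against 4280.1, 1662.3, 3128.9, 3251.0 and 3123.5 in unmated females. All but 1 unmated array lay above those at 6 h, and the difference was -0.65 (SE 0.29, adjusted p = 0.248). Cyp6w1 differed by -0.02 (SE 0.40) and became 0.27 with median centring.

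The exception among the unmated arrays was replicate 2. It had the lowest unmated signal for Cyp6g1, Cyp6d5, Cyp6w1, Cyp6a2, Cyp12a4 and Cyp4e2, and the lowest summed P450 signal of that group (23595). The same held for Cyp18a1, which passed at 6 h, and for Cyp12d1-d, Cyp12b2, Cyp6a8, Cyp6t3, Cyp4p1, Cyp4p3 and Cyp28d1, among others. Other members went the other way. The same array had the highest unmated signal for Cyp6a9, Cyp6a13, Cyp6a17, Cyp6a20, Cyp6d2, Cyp305a1, Cyp4ac3 and Cyp49a1 probe set 146949_at. The array median of unmated replicate 2 was the highest of all 21 (57.7).

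Regulators of the xenobiotic response were measured too. These were cnc, a transcription factor that induces detoxification genes, its inhibitor Keap1 and the nuclear receptor Hr96. The 3 genes had 6 probe sets in all, most of them of cnc. None passed in any comparison. For 6 h against unmated all 6 lay below 0, with differences between -2.04 and -0.05, and for 24 h against 6 h all 6 lay above 0, between 0.12 and 1.91. With median centring 5 of 6 did so in each comparison, and without unmated replicate 2 the value of Hr96 at 6 h was 0.081.

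Cyp6a14 and Cyp6u1 had the highest Cyp6 differences at 3 h. Cyp6u1 had 120.7, 126.4, 108.2 and 90.2 at 3 h, against 88.3, 87.8, 74.3, 89.2 and 10.3 in unmated females. The 3 h arrays lay above every unmated array, yet unmated replicate 5 alone stood far below its group. The difference was 0.99 (SE 0.48, adjusted p = 0.666), and 0.38 without that array. Cyp6a14 differed by 0.85 (SE 0.42, adjusted p = 0.673) and Cyp6a23 by -0.67 (SE 0.30, adjusted p = 0.6255).

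In the Cyp4 family, 14 of 22 probe sets lay below 0 at 6 h against unmated, or 63.6%, near the 60.4% of all probe sets. At an unadjusted p under 0.05 there were 3, all lower at 6 h, or 13.6% against 17.7% of all probe sets. The median of -0.43 was -0.12 with quantile normalization, -0.14 with median centring and -0.21 without 6 h replicate 2. Of the 22, 10 were bright, and their median was -0.80 with 7 below 0. That made 70.0% below 0 against 52.6% of all bright probe sets, whose median was -0.05. For 24 h against 6 h, 12 of 22 lay above 0, with a median of 0.13 (11 of 22 with median centring). That left 45.5% below 0, against 46.5% of all probe sets. Of the 10 bright probe sets 9 lay above 0, with a median of 0.66, and 10.0% lay below 0 against 47.0% of all bright probe sets. No member of the family passed in any comparison.

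**Figure D5:**
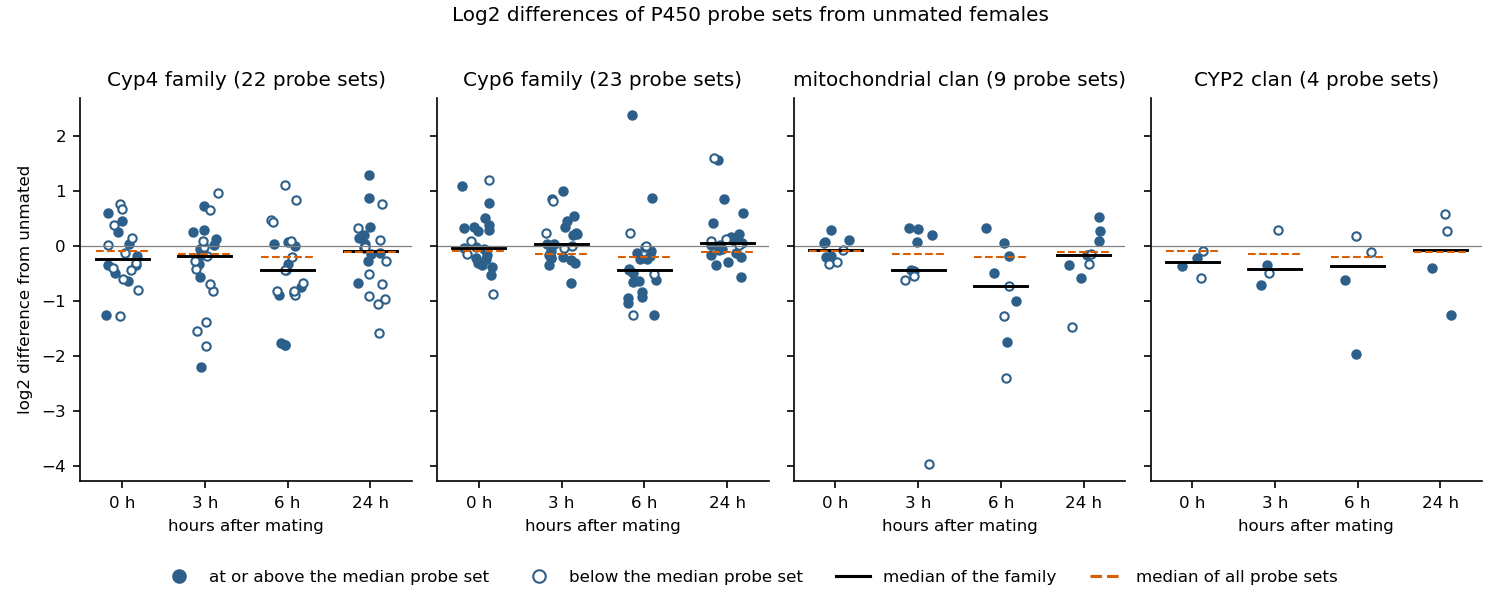
Log2 differences from unmated females (vertical axis) of the probe sets of 4 P450 groups at 0, 3, 6 and 24 h after mating (horizontal axis). Filled points are bright probe sets, open points dimmer ones, black bars the median of the group and dashed lines the median of all probe sets; at 6 h the black bars lie at -0.43 for Cyp4 and -0.44 for Cyp6.

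Cyp4g1, the oenocyte enzyme that makes cuticular hydrocarbons, varied widely between pools. It had 5945.8, 2760.2, 2803.6, 1952.5 and 2369.5 in unmated females. At 0 h the lowest, median and highest were 808.1, 1330.0 and 6498.4, and at 3 h it had 377.1, 1058.5, 176.9 and 2384.9. At 6 h it had 916.8, 2156.1 and 304.0, and at 24 h 2595.6, 4299.1 and 554.4. Every mated group overlapped the unmated range, and in each mated group the lowest and highest arrays lay far apart.

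The difference of Cyp4g1 from unmated was -2.19 at 3 h (SE 0.81, adjusted p = 0.543) and -1.79 at 6 h (SE 0.88, adjusted p = 0.298). Number block as a fixed term turned the sign at 0 h (to 1.20), 6 h (to 0.82) and 24 h (to 1.52). The summed signal of the other 3 oenocyte markers, Fad2, FASN2 and eloF, ranged between 165.6 and 545.2 at 3 h, against 371.7 to 1688.2 in unmated females. The part of oenocyte RNA in the values of Cyp4g1 was not tested.

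Its paralogue Cyp4g15 had a difference of 0.60 (SE 0.25, adjusted p = 0.629) at 0 h and of 0.01 (SE 0.30) at 6 h. Cyp4ac3 had the lowest bright difference at 0 h, where its lowest, median and highest signals were 48.3, 76.35 and 183.6, against 123.1, 281.5, 235.7, 269.5 and 151.4 in unmated females. The groups overlapped and the difference was -1.25 (SE 0.46, adjusted p = 0.586). At 6 h it was -1.77 (SE 0.55, adjusted p = 0.101), with 122.4, 78.7 and 21.5 at 6 h, all below the unmated arrays.

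Cyp4e2, Cyp4p1 and Cyp4p3 completed the named Cyp4 members. Cyp4e2 had 1038.2, 1438.8 and 868.7 at 6 h, against 2261.7, 999.6, 2533.2, 2537.8 and 2273.7 in unmated females. Leaving aside unmated replicate 2, the groups did not overlap, and the difference over all arrays was -0.88 (SE 0.36, adjusted p = 0.196). Without that array it was -1.14.

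Cyp4p3 had 596.5, 439.1 and 191.3 at 24 h, against 185.7, 113.9 and 4.0 at 6 h. The 24 h arrays lay above those at 6 h, and a single 6 h array, replicate 3, stood far below the other 2. The difference of 24 h from 6 h was 3.07 (SE 1.06, adjusted p = 0.550), with 1.24 in block 4 and 5.58 in block 6, the block of that array. The difference of 6 h from unmated was -1.79 (SE 0.95, adjusted p = 0.334), and -0.062 without 6 h replicate 3. Cyp4p1 differed by 1.60 (SE 0.61, adjusted p = 0.617) at 24 h against 6 h, with 1.20 in block 4 and 1.55 in block 6.

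In the Cyp313 family of the CYP4 clan, Cyp313a3 was the only bright member. It had 291.5, 320.4 and 178.8 at 6 h, against 528.8, 619.5, 408.1, 395.4 and 753.6 in unmated females. The groups did not overlap, and the difference was -1.04 (SE 0.31, adjusted p = 0.0882). It passed without the dimmer probe sets, with log2 of signal plus 16 and with a variance trend and robust moderation.

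The other members of the CYP2 clan were Cyp303a1, needed for bristle development, Cyp304a1 and Cyp305a1. Cyp305a1 had 275.7, 281.3, 247.4 and 193.5 at 3 h, against 421.1, 534.4, 389.0, 398.4 and 313.1 in unmated females. All 4 arrays at 3 h lay below all 5 unmated arrays, and the difference was -0.71 (SE 0.26, adjusted p = 0.535). At 6 h it was -0.63 (SE 0.29, adjusted p = 0.253). Cyp304a1 is dim and differed by 0.17 (SE 0.77) at 6 h, with the sign turned by array weights.

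Cyp28d1, a CYP3 clan gene induced by plant alkaloids, had 355.8, 295.8 and 194.6 at 24 h, against 528.4, 142.2, 536.5, 510.4 and 771.0 in unmated females. Unmated replicate 2 lay below all 3 arrays at 24 h and the other unmated arrays above them. The difference was -0.67 (SE 0.43, adjusted p = 0.736). For 24 h against 6 h it was -0.73, with -0.63 in block 4 and -1.38 in block 6.

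Where a gene had 2 probe sets, they gave differences of the same sign at 6 h on the deposited scale, where 60.4% of all probe sets lay below 0. These were -0.92 and -0.23 for Cyp9b2, -0.33 and -0.46 for Cyp9f2, -2.40 and -1.27 for Cyp49a1, and -0.50 and -0.40 for Cyp318a1. Median centring raised every value at 6 h by 0.29 and so turned the sign of the brighter Cyp9b2 probe set (-0.23) alone. At 3 h the probe sets of Cyp9b2 stood at -1.52 and -0.37. At 24 h those of Cyp318a1 had opposite signs, 0.08 for the brighter and -0.46 for the other.

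Markers of other cell types differed at 6 h as well. The summed signal of 4 neuron markers was 12.5 to 31.1 at 6 h against 63.4 to 117.7 in unmated females. It lay below the unmated range at 0 h (14.2 to 62.1) and at 24 h (51.9 to 60.7) too. All 4 are dimmer than the median probe set, whose signal was 41.9. At 6 h Syn had 1.1, 0.9 and 3.2 and elav 1.8, 3.8 and 2.7, which cannot be told from background here. The summed signal of 4 hemocyte markers was 740.1 to 968.5 at 6 h against 974.8 to 2044.7, and that of 4 germline markers 301.5 to 577.2 at 6 h against 79.1 to 167.9. None of these 6 h ranges overlapped the unmated ones.

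For tissues known for strong P450 expression the ranges overlapped. They were 57303 to 89559 at 6 h against 68202 to 125028 in unmated females for 7 fat body markers, 231.5 to 377.9 against 234.5 to 379.8 for 2 Malpighian tubule markers, and 54.0 to 59.3 against 52.4 to 152.6 for 4 midgut markers. They also overlapped for 2 follicle cell markers (133.0 to 246.1 against 137.0 to 269.8). The sums of the 3 oenocyte markers overlapped too, with 266.6 to 505.9 at 6 h against 371.7 to 1688.2. With Cyp4g1 included, all 4 oenocyte probe sets lay below 0 at 6 h, where 60.4% of all probe sets did. Their median was -0.77, beside -0.21 for all probe sets. Yp1, Yp2 and Yp3 made most of the fat body sum. In the same list, the brighter probe set of apolpp had 4146.5, 3460.2 and 1212.5 at 6 h, against 4178.5 to 7383.2 in unmated females. These did not overlap, whereas the other apolpp probe set did. Of 8 fat body probe sets 7 lay below 0 at 6 h and 1 above, with a median of -0.15 beside -0.21 for all probe sets. Muscle markers, of which 2 were measured, summed to 10492 to 17888 at 6 h against 9510 to 25330 in unmated females. The 5 markers of spermathecae and female accessory glands, which check the labelled tissue, summed to 10784 to 18947 at 6 h against 8536 to 24159. Both overlaps rested on unmated replicate 2, and the other 4 unmated arrays, with 9510 to 10240 for muscle and 8536 to 10035 for the tissue list, lay below all 3 arrays at 6 h. The tissue markers did not move together. Send2 rose by 6.88 at 6 h (adjusted p = 0.000112), and the other 4 lay below 0. No marker was at a signal of 0, though the neuron marker Syn was as low as 0.9 at 6 h. The part of other cell types in the P450 differences was not tested.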

How the data were processed

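The authors deposited a single table of linear intensity values, 1 per probe set and array, and the submitters' processing notes name RMA. The deposited intensities are linear and do not share quartiles, and the 2% trimmed mean is 150.0 on every array, so the summary method behind them is not settled. Of 14010 probe sets, 44 controls were left out. Symbols came from the platform annotation and were updated by gene identifier with RefSeq's Release 6 plus ISO1 MT table, otherwise used for gene order and chromosome arms alone. Sequences were not used here.

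With no pseudocount, log2 values of 13966 probe sets on 21 arrays were fitted in limma 3.58.1 (R 4.3.3) with a mean for each of the 5 groups, moderated 2-sided tests and Benjamini-Hochberg adjustment over all probe sets. Adjusted p-values come from this model and F tests from the same fit. The script was tested on simulated data.

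Number blocks were inferred from gaps of more than 20 between the array numbers in the labels. Replicate numbers follow the order of the samples and pair nothing. Alternatives were quantile normalization, median centring, no dim probe sets, log2 of signal plus 16, block as a fixed or random term, only the groups compared, array weights, a variance trend with robust moderation, the control transcripts' 3' to 5' ratio, no block 6, 1 probe set per gene, and leaving out each array. Marker sums and further genes without unmated replicate 2, and the P450 median relative to the array median, were added after seeing the data.

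Named genes were those passing, the 3 highest and 3 lowest bright differences at each time against unmated, the 3 with the highest mean of 4 groups (Cyp4, Cyp6, mitochondrial, CYP2) and the hormone list. Halloween genes and redox partners were named outside the family. Where a gene has several probe sets, the brightest on average stands for it. Named genes in further comparisons, the regulators, the run of neighbouring genes and the genes with 2 probe sets were picked with their values in view. The members and all lists were chosen with earlier results of these data known.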

Additional observations from a re-analysis of the deposited data

Results flagged for a closer look

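Among the named genes, 75 groups of 4 to 6 arrays were searched for an array whose gap to the nearest other was large against the range of its group, which chance flags in about 1 of 20 groups. There were 9 such arrays. Unmated replicate 2 stood lowest for Cyp28d1 (142.2, the others 510.4 to 771.0), Cyp4e2 (999.6, the others 2261.7 to 2537.8) and Cyp12a4 (711.9, the others 1646.4 to 2142.7). Unmated replicate 4 stood lowest for Cyp6a19 (7.1, the others 27.8 to 36.2), and unmated replicate 5 for Cyp6u1 (10.3, the others 74.3 to 89.2). At 3 h, replicate 3 stood lowest for Cyp4p3 (99.6, the others 329.8 to 348.2) and for Cyp12b2 (435.2, the others 557.1 to 583.2). At 0 h, replicate 3 stood highest for Cyp6a8 (359.4, the others 111.0 to 140.0) and replicate 4 lowest for Cyp28d1 (312.3, the others 561.6 to 773.5).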

How the results depend on the processing

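No paired analysis was possible because the replicate numbers follow the order of the samples and pair nothing. The counts of passing members at 0 h and 24 h against unmated and at 24 h against 6 h were 0 in all 12 alternatives each and in every fit without an array. At 3 h the count of 1 became 0 without the dimmer probe sets, which removes Cyp49a1, with number block as a fixed term and with 1 probe set per gene; without an array it was 1 in all 9 fits. At 6 h the count of 2 became 4 without the dimmer probe sets, 4 with log2 of signal plus 16, 5 with a variance trend and robust moderation, 3 with array weights or without block 6, and 0 with number block as a fixed or random term or with only the groups compared, and ranged between 1 and 2 without an array. It remained 2 with quantile normalization, median centring and 1 probe set per gene, but there Cyp6a19 stood in place of Cyp49a1. At 6 h against 0 h the count of 0 became 1, Cyp18a1, without the dimmer probe sets, with log2 of signal plus 16, with number block as a fixed or random term and with a variance trend, and was 0 without an array. In the F test the count of 1 became 2 with log2 of signal plus 16 or a variance trend, 3 with array weights, and 0 with number block as a fixed term or 1 probe set per gene, and ranged between 1 and 2 without an array. It remained 1 without the dimmer probe sets, but there Cyp18a1 stood in place of Cyp49a1. No called difference changed sign. With number block as a fixed term the sign turned for Cyp4g1 (1.20 at 0 h, 0.82 at 6 h, 1.52 at 24 h), Cyp6a8 at 0 h (-0.061) and Cyp12a4 at 6 h (-0.52). For Cyp12a4 it also turned with the block as a random term (-0.083), quantile normalization (-0.022) and array weights (-0.0033), and array weights turned Cyp304a1 (-0.33). Median centring turned Cyp6g1 (0.20) and Cyp6w1 (0.27), adjusting for the 3' to 5' ratio turned Cyp6w1 (0.090), and leaving out block 6 turned Cyp6w1 (0.043) and Cyp4g1 at 24 h (0.19). Without an array the differences ranged between -1.28 and 0.19 for Cyp4g1 at 24 h, and at 6 h between -0.35 and 0.056 for Cyp6g1, -0.35 and 0.15 for Cyp6w1, -0.22 and 0.17 for Cyp12a4, -0.36 and 0.46 for Cyp304a1, and -1.22 and 0.095 for Cyp6g2. The cause of these changes was not tested. No detection calls were used, so how far dim members stood above background is not known.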
